A study of Mus musculus with 3 samples.

Results

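The histone genes were taken as every gene symbol that begins with Hist1h, Hist2h, Hist3h, Hist4h, H2af, H3f3 or H1f. The 3 count files held 82 such symbols among 25410. Of these, 65 belong to the replication-dependent histone clusters: 6 H1, 18 H2A, 17 H2B, 12 H3 and 12 H4 genes. The other 17 are replacement variants: 4 of H1, 10 of H2A and 3 of H3. The rule used names only and no measured level, but it was chosen with earlier results of these data known.

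The samples were 3 biological replicate libraries of IDG-SW3, a clonal mouse line of osteocytic cells from a conditionally immortalized source. The cells had been expanded at a lowered temperature with interferon-gamma, which keeps their temperature-sensitive T antigen active, and then differentiated in osteogenic medium at body temperature without it. All 3 cultures were at day 35 of differentiation and had received 100 nM parathyroid hormone (PTH) for 24 h. They form a single treated group. Vehicle-treated libraries were not analysed here, so no effect of PTH on any histone gene was measured. Total RNA was depleted of ribosomal RNA and made into strand-preserving libraries, a method that does not select for a poly(A) tail.

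The deposited values summed to 35195518, 37299517 and 45240005 counts in replicates 1, 2 and 3. They were read as counts because they are whole numbers, although the file names give RPKM. RPKM below means reads per kilobase of annotated transcript per 1000000 counts, computed from them with GRCm38 transcript lengths, and every RPKM rests on that reading. Of the osteoblast-lineage markers, 9 of 10 were above 1 RPKM, with a summed level of 12871 to 14371 RPKM over the libraries. Of the osteocyte markers 4 of 8 were, led by Pdpn at 156 ± 27.6 RPKM (SD, n = 3), and the late osteocyte marker Sost had 2, 0 and 0 counts. Of the 5 macrophage and osteoclast markers with a length, 2 were below 1 RPKM, 1 on neither side and 2 listed at 0, with a summed level of 0.232 to 0.277 RPKM. Several transcript rows were given for 3 of these 5, including both listed at 0. Symbols with several rows were more often at 0, 32.2% against 5.77% of those with 1 row. Above 1 RPKM were 2 of 6 adipocyte, 2 of 6 chondrocyte and 1 of 5 endothelial markers. Of 5 skeletal muscle markers 1 was below and 4 on neither side. The adipocyte and the endothelial marker listed at 0 also had several rows. Over all symbols tested in the same way, 43.2% were above 1 RPKM and 13.4% below. Fewer cells of a type and less RNA per cell cannot be told apart in these bulk libraries.

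Histones H2A, H2B, H3 and H4 form the core around which DNA is wound, and H1 binds the DNA between cores. The clustered genes are transcribed mostly in S phase, when new DNA must be packed, and their transcripts usually end in a short stem-loop in place of a poly(A) tail. The stem-loop binding protein SLBP holds that structure for processing, translation and decay. Replacement variants are made throughout the cell cycle from polyadenylated transcripts, often with introns, and take over in cells that have stopped dividing. A library prepared without poly(A) selection can therefore hold both kinds.

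The stem-loop is what sets the classes apart in sequence, so its distinct forms are shown first. GENCODE transcripts of build GRCm38 were searched on the sense strand within 100 bases after the stop codon for GGNNNT, a loop of 4 bases that starts with T, and ANNNCC, with stems that pair. Capitals mark the 16 bases of stem and loop, and lower case marks up to 5 bases on either side. The form of Hist1h1c was the commonest, found in 25 genes of the H1, H2A, H2B and H3 types.
Hist1h1c: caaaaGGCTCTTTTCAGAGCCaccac
Hist1h2bb: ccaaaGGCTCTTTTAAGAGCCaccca
Hist2h2ac: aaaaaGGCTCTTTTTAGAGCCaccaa
Hist1h3g: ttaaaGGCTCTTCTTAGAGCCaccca
Hist1h4c: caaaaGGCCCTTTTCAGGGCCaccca
Hist2h4: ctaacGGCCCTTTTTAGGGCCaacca
Hist1h4b: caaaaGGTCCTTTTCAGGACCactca
Hist1h4a: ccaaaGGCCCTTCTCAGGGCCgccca
H2afx: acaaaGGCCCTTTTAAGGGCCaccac
The form of Hist1h2bb was held by 6 genes and that of Hist1h4c by 6 H4 genes. Forms matching Hist2h4 and Hist1h4b were each held by 2 H4 genes. Those of Hist2h2ac, Hist1h3g, Hist1h4a and H2afx were each found in 1.

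Of the 65 cluster genes, 48 had at least 30 annotated bases after the stop codon, and 44 of those held the stem-loop, 21 to 58 bases after it (median 31). The 4 without a match were Hist1h1a, Hist1h2bc, Hist2h2be and Hist2h3b, and 17 had too short an annotated end to search. Only 48 bases were annotated for Hist1h1a and 37 for Hist2h3b, so a stem-loop further on would be missed in these. That of Hist2h3c1, which shares sequence with Hist2h3b, starts 30 bases after the stop and would not fit in 37. For Hist1h2bc and Hist2h2be all 100 bases were searched. Of the 12 replacement genes that could be searched, H2afx was the 1 with a match, 46 bases after the stop. Of 19923 other genes with all 100 bases annotated, 5 held such a match, or 0.0251%. A transcript with 1 exon was annotated for 62 of the 65 cluster genes and for 9 of the 17 replacement genes.

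Most histone genes were measured above 1 RPKM. Reads were counted in 75 of the 82 genes, and 69 of these 75 (92%) lay above 1 RPKM by edgeR's quasi-likelihood test at a Benjamini-Hochberg adjusted p of 0.05, with adjusted p up to 0.0245. Over all 21032 symbols tested in the same fit, 43.2% were above. By type, the count above was 5 of 6 tested H1, 16 of 16 H2A, 14 of 16 H2B, 12 of 12 H3 and 12 of 12 H4 cluster genes. Among replacement genes it was 1 of 4 H1, 6 of 6 H2A and 3 of 3 H3. A gene needed a count to be tested, so these counts leave out the 7 genes listed at 0.

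DESeq2 called 66 members above, against 35.6% of all symbols, and limma 68, against 42.5%. The call below 1 RPKM went to 0 members by edgeR (0 also at an unadjusted p under 0.05), against 13.4% of all symbols. It went to 0 members by DESeq2, against 1.27% of all symbols, and to 5 by limma, against 45.7%. The 6 that edgeR placed on neither side were H1foo, H1fx, H1fnt, Hist1h1t, Hist3h2ba and Hist3h2bb-ps. The 3 calls above that changed with the tool were all of low genes. H2afy3 had adjusted p of 0.0245 by edgeR, 0.535 by DESeq2, 0.056 by limma and 0.431 by edgeR without replicate 2. Hist1h1d and Hist2h3c1 had DESeq2 adjusted p of 0.222 and 0.447.

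**Figure D1:**
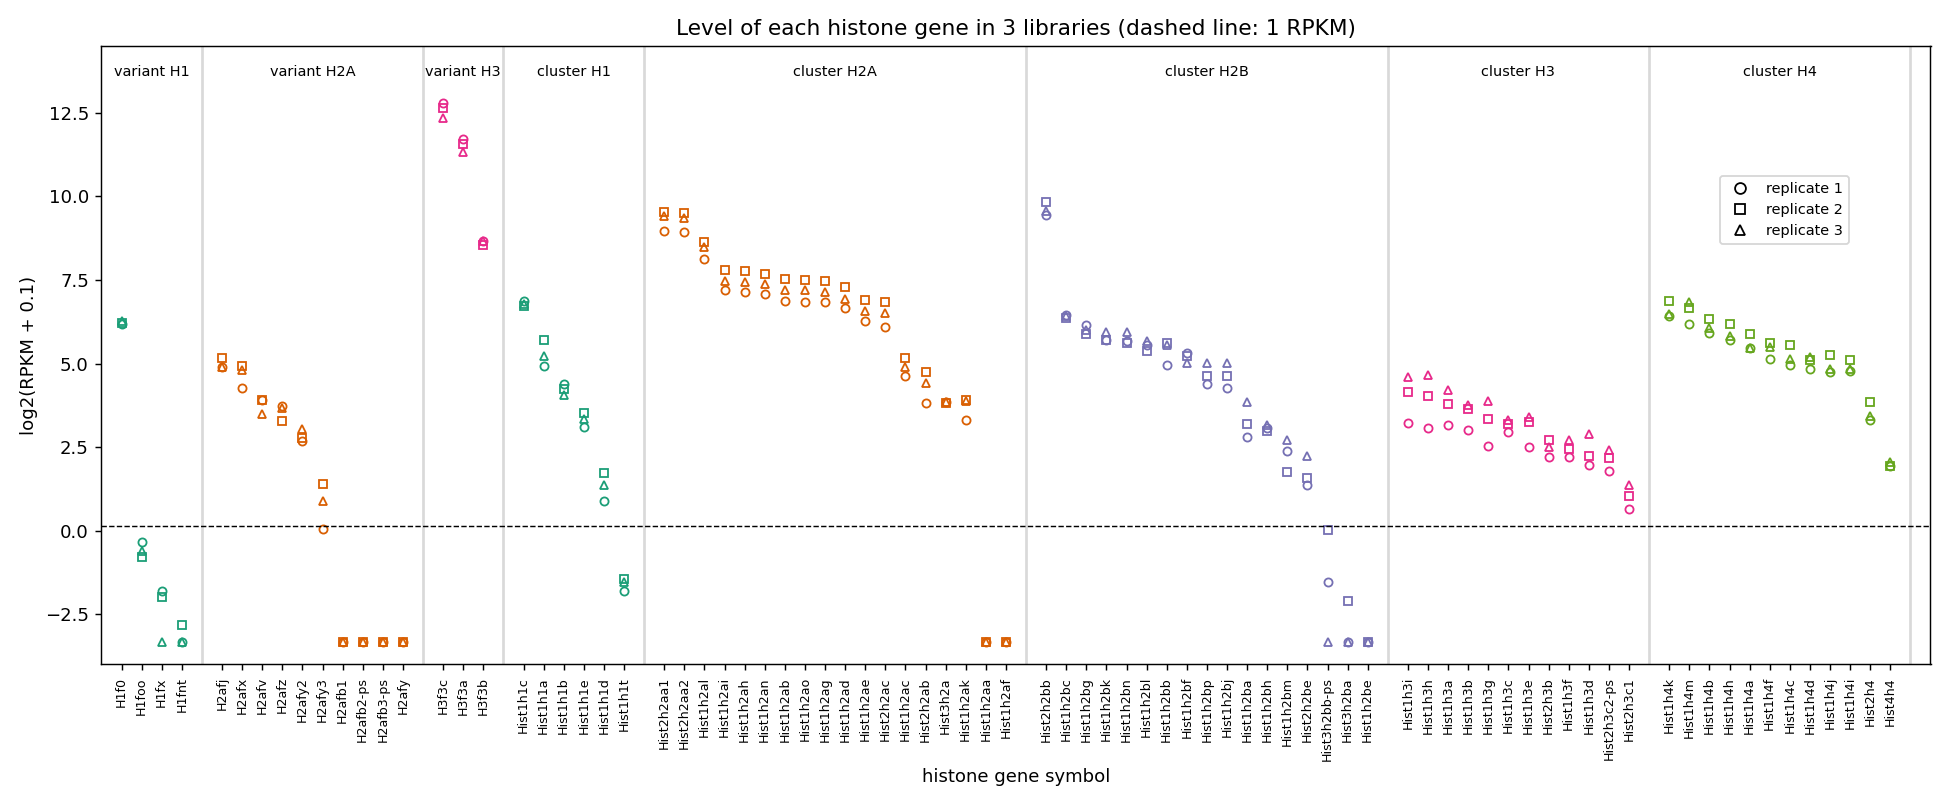
Level of each of the 82 histone genes as log2(RPKM + 0.1), by class and type, with 1 symbol shape per replicate library and genes ordered by mean level within a type. The H3 variants H3f3c, H3f3a and H3f3b stand far above the cluster H3 genes, whose means run from 1.97 to 17.1 RPKM, and the 7 genes with no count lie at the bottom.

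The genes of the replacement histone H3.3 included the 2 highest of all histone genes per kilobase, H3f3c and H3f3a. H3f3a, which encodes H3.3, had 3398, 3061 and 2555 RPKM in replicates 1, 2 and 3, a mean of 3004 ± 424 (SD, n = 3), and ranked 16th from the top of all symbols with a length. H3f3b, the other coding gene for the same protein, had 407, 377 and 407 RPKM, a mean of 397 ± 17.8. Its ranges did not overlap those of H3f3a, and the log2 ratio of H3f3b to H3f3a was -2.91 ± 0.23. That ratio was -1.39 with the longest annotated transcript and -1.57 with coding length, so its size rests on the length chosen.

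H3f3c was listed at 7135, 6414 and 5226 RPKM, above H3f3a in every library, but how much of this is its own is not known. GENCODE annotates it as a processed pseudogene, an intronless copy of a messenger RNA, with a length of 411 bases. Of the stretches of 50 bases in its transcript, 67.7% also occur in H3f3a. Of those of H3f3a, pooled over its annotated transcripts, 8.17% occur in H3f3c. The deposited counts of H3f3a and H3f3c were 106191 and 103211 in replicate 1, 101389 and 98324 in replicate 2, and 102624 and 97162 in replicate 3. The pair differed by a factor of only 1.03 to 1.06 in each library. How the authors assigned reads that match several genes is not given in the sources used here. The share of these counts that comes from H3f3c therefore cannot be told apart from that of H3f3a. The level of H3f3a and its ratio to H3f3b carry the same uncertainty.

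Among the H2A variants with counts, no gene dominated. H2afj, a variant close to the canonical form, had 29.5, 35.7 and 29.8 RPKM. H2afx, the variant phosphorylated at DNA breaks and the replacement gene with a stem-loop, had 19.2, 30.1 and 27.8 RPKM, lowest in replicate 1. Their ranges overlapped.

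H2afv and H2afz encode H2A.Z, the variant placed at promoters by chromatin remodellers. H2afv had 14.9, 14.9 and 11.1 RPKM and H2afz had 13.0, 9.57 and 12.7. The log2 ratio of H2afz to H2afv was -0.21 ± 0.42, with H2afz lower in 2 of 3 libraries, and 0.00303 without replicate 2, so the pair did not differ beyond the spread. Of the 50-base stretches of H2afz, 63.8% also occur in other genes that do not overlap it, against 0 for H2afv.

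The macroH2A genes encode large H2A variants found on silent chromatin. H2afy2 had 6.35, 6.75 and 8.09 RPKM. H2afy, the other macroH2A gene, was listed at 0 in all libraries in each of its 4 rows. A listing at 0 was commoner among symbols with several rows: 32.2% of 3470 such symbols had no count, against 5.77% of 21940 symbols with 1 row. The 0 of H2afy is therefore given as a listing and no fold against H2afy2 is drawn from it. H2afy3, for which no coding sequence was annotated, had 37, 105 and 89 counts, a level of 0.945, 2.53 and 1.77 RPKM. Of its 50-base stretches, 13.4% recur in H2afy2. H2afb1, H2afb2-ps and H2afb3-ps, members of a short-histone family known from testis, had 0 counts in every library.

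The H1 variants consisted almost wholly of H1f0, the linker histone associated with differentiated cells. H1f0 had 73.2, 74.3 and 76.7 RPKM (74.7 ± 1.79, SD, n = 3). The egg-type H1foo had 0.573 ± 0.105 RPKM. H1fx had 8, 7 and 0 counts and the testis-type H1fnt 0, 2 and 0. With so few counts no fold was drawn for either.

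The cluster H1 genes had a clear order at the top. Hist1h1c, which encodes H1.2, had 115.8, 105.1 and 110.4 RPKM (110 ± 5.37). It lay above H1f0 in 3 of 3 libraries, with a log2 ratio of 0.56 ± 0.09, which was 0.037 with coding length. The sum of cluster H1 was 182 ± 7.33 RPKM against 75.4 ± 1.64 for the H1 variants, a log2 ratio of 1.27 ± 0.07, which was 0.58 with coding length.

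Hist1h1a had 30.6, 51.6 and 37.7 RPKM and Hist1h1b, the H1.5 gene, had 20.8, 18.7 and 16.5, so the ranges of these did not overlap. Hist1h1e had 8.42, 11.3 and 10.04 RPKM. Hist1h1d was lower per kilobase, at 2.49 ± 0.738 RPKM, over an annotated length of 7425 bases that ends 4884 bases past its stem-loop. Its counts of 460, 896 and 830 were close to the 572, 816 and 877 of Hist1h1e. Hist1h1t, the testis form, had 6, 9 and 10 counts.

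Cluster H2A made up 58.3% ± 2.39 of the summed cluster RPKM, the largest share in the full sum. With each family of genes that share sequence counted once it made up 36.2% ± 2.32, below H2B. Hist2h2aa1 had 498, 745 and 689 RPKM and Hist2h2aa2 had 487, 731 and 653. These are neighbouring copies in the Hist2 cluster on chromosome 3, and 89.2% of the 50-base stretches of Hist2h2aa1 recur in another histone gene. Hist1h2al, listed with 346 ± 58.3 RPKM, is annotated as a processed pseudogene and shares 67.6% of its stretches with other histone genes. All 3 were lowest in replicate 1 and highest in replicate 2.

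The main Hist1 H2A copies on chromosome 13 carried almost the same count. A family of 10 copies, linked wherever a pair shared at least 50% of the 50-base stretches of the shorter, held 9 with counts. These ran from 1860 to 2144 in replicate 1, from 2976 to 3326 in replicate 2 and from 2945 to 3322 in replicate 3. The coefficient of variation among the 9 was 4.23%, 3.41% and 3.25%. Hist1h2ac, with an annotated length of 2482 bases, and Hist1h2ai, with 393, had like counts but levels of 30.0 ± 5.70 and 182 ± 38.5 RPKM. For these genes RPKM thus orders the annotated lengths rather than the counts. Hist1h2af, in the same family, had 0 counts although 79.7% of its stretches recur in other histone genes.

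H2A genes outside those families had means of 92.1 RPKM or less. Hist2h2ac had 92.1 ± 23.2 RPKM and Hist2h2ab 20.7 ± 6.44. Hist1h2ak had 13.1 ± 2.92 RPKM. Hist3h2a, the gene of a smaller cluster, had 14.3, 13.9 and 14.4 RPKM and did not share the low value of replicate 1. Hist1h2aa, a testis gene, had 0 counts.

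Across all histone genes, 41 fell into 7 such families, and 59 of the 65 cluster genes shared at least 1 stretch of 50 bases with another histone gene. Values of single copies are therefore uncertain, and sums by type are given with each family counted once, at its highest member, beside the full sum. That alternative was chosen after the data were seen. Families chain from pair to pair, so 2 members can share less: Hist1h2bc and Hist1h2bp share 26.8% of the stretches of the shorter. Counting a family once can thus also leave out reads of distinct genes.

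**Figure D2:**
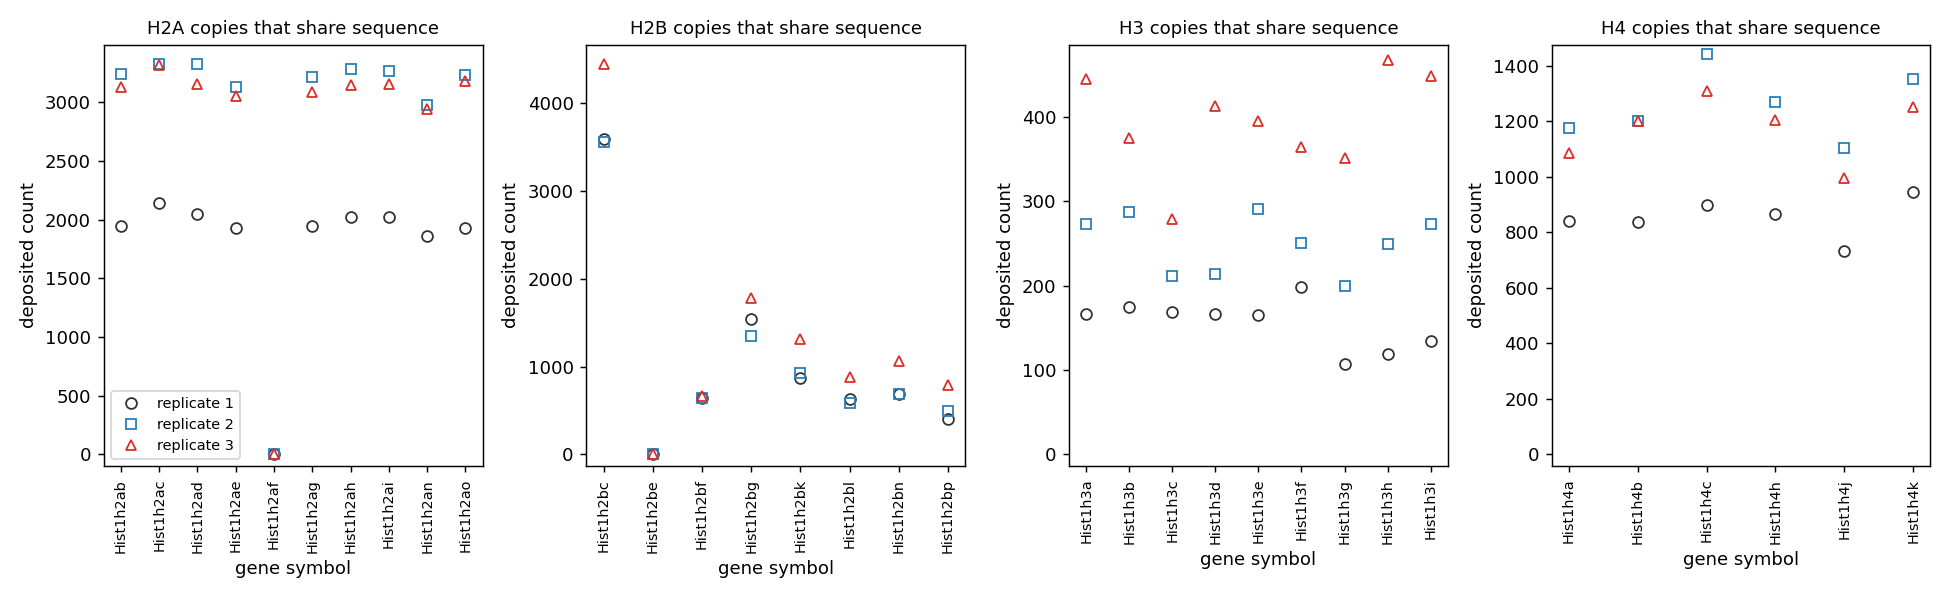
Deposited counts of the members of 4 families of cluster genes that share sequence, with 1 symbol shape per replicate library on a linear axis. Within a library the H2A family was nearly level (1860 to 2144 in replicate 1) apart from Hist1h2af at 0, whereas the H2B family ran from 401 to 3590 in replicate 1 apart from Hist1h2be at 0.

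Cluster H2B was led by Hist2h2bb, with 692, 914 and 757 RPKM (788 ± 114). It ranked 102nd of all symbols, the highest cluster gene per kilobase, over an annotated length of 381 bases. Hist2h2aa1, annotated at 586 bases, had more counts in each library: 10281, 16278 and 18258 against 9275, 12986 and 13050. Hist2h2bb shares no stretch with another histone gene, but each 50-base stretch of it also occurs in annotated genes that overlap it. These are Gm42743 on the same strand and Gm20628 on the opposite strand. Reads of Gm42743 cannot be told apart from its own. Those of Gm20628 may be counted too, as the handling of strand in the counting was not given. Hist1h2bc came next with 88.2, 82.4 and 85.0 RPKM (85.2 ± 2.92), and Hist1h2bg had 70.9, 58.7 and 63.6. Hist1h2bc is 1 of the 4 searched cluster genes without a stem-loop match.

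The H2B family of 8 copies was far less even than the H2A family, with counts of 401 to 3590 among 7 members in replicate 1, a coefficient of variation of 93.6%. Hist1h2bk had 55.0 ± 5.39 RPKM and Hist1h2bn 53.9 ± 7.06. Hist1h2bl had 46.4 ± 4.90 and Hist1h2bf 36.2 ± 3.77. Hist1h2bp had 25.8 ± 5.70 RPKM. Hist1h2be, in the same family, had 0 counts in both of its rows.

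Outside the family, Hist1h2bb had 31.1, 49.3 and 47.3 RPKM and Hist1h2bj 25.3 ± 6.79. Hist1h2ba, a testis H2B, was listed at 10.1 ± 3.84 RPKM, and 38.2% of its stretches recur in other histone genes. Hist1h2bh had 8.35 ± 0.539 and Hist1h2bm 4.96 ± 1.60. Hist2h2be had 2.48, 2.90 and 4.61 RPKM, and the log2 ratio of Hist1h2bc to Hist2h2be, both without a stem-loop match, was 4.69 ± 0.47, or 3.54 with coding length. Hist3h2ba had 0, 3 and 0 counts and Hist3h2bb-ps 4, 16 and 0.

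Of the cluster types, H3 had the lowest median level, 8.63 RPKM, and the widest spread between libraries, a median SD of 0.43 in log2 level against 0.17 over all symbols of 1 RPKM or more. Hist1h3i had 9.26, 17.8 and 24.1 RPKM and Hist1h3h 8.23, 16.2 and 25.2. Hist1h3a had 8.83, 13.7 and 18.4. All 3 were lowest in replicate 1 and highest in replicate 3. Hist1h3h (SD of log2 level 0.81) and Hist1h3i (0.70) were the most variable histone genes of 1 RPKM or more, followed by H2afy3 (0.67).

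The other Hist1 H3 genes, Hist1h3b, Hist1h3g, Hist1h3c, Hist1h3e, Hist1h3f and Hist1h3d, had means of 5.23 to 11.3 RPKM. In the Hist2 cluster, Hist2h3b had 5.55 ± 0.973 RPKM, Hist2h3c2-ps 4.29 ± 0.936 and Hist2h3c1 1.97 ± 0.504. The 9 Hist1 copies form 1 family with 107 to 199 counts in replicate 1, 200 to 291 in replicate 2 and 279 to 468 in replicate 3. No cluster H3 gene reached the lowest library value of H3f3b.

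Cluster H4 genes had a median of 40.4 RPKM. Hist1h4k had 86.0, 116 and 88.6 RPKM, Hist1h4m had 72.4, 101 and 114, and Hist1h4b had 60.0, 81.0 and 66.9. The ranges of Hist1h4k and Hist1h4m overlapped. Of the 50-base stretches of Hist1h4m, 89.8% also occur in other genes that do not overlap it, and 40.5% in other histone genes. Hist1h4a, Hist1h4b, Hist1h4c, Hist1h4h, Hist1h4j and Hist1h4k form a family with 731 to 944 counts in replicate 1. The remaining H4 genes, Hist1h4h, Hist1h4a, Hist1h4f, Hist1h4c, Hist1h4d, Hist1h4j, Hist1h4i and Hist2h4, had means of 11.6 to 60.5 RPKM. Hist4h4, alone in its cluster on chromosome 6, had 3.76, 3.74 and 4.05 RPKM and varied little.

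Summed by type, the balance between cluster and variant genes differed from H1 to H3. Cluster H2A summed to 2976 ± 599 RPKM against 91.6 ± 7.88 for the H2A variants, a log2 ratio of 5.0 ± 0.18 and positive in 3 of 3 libraries. H2afy entered the variant sum as 0, a listing that may not be its level, so the sum and the ratio carry that uncertainty. With each family once the cluster H2A sum was 814 ± 166 RPKM and the ratio 3.13, and with coding length the ratio was 3.87. Cluster H3 summed to 108 ± 36.1 RPKM against 9660 ± 1386 for H3.3, a log2 ratio of -6.52 ± 0.72. With each family once the sums were 17.9 ± 5.73 and 3401 ± 423 RPKM and the ratio -7.60. With 3 libraries the exact two-sided sign-flip test cannot go below p = 0.25, so no test was made of these ratios.

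Cluster H2B summed to 1250 ± 111 RPKM (968 ± 121 with each family once) and cluster H4 to 563 ± 86.5 (256 ± 41.4). Core histones enter the nucleosome in equal number, yet cluster H3 made up 2.12% ± 0.568 of the cluster sum beside 58.3% for H2A, 24.8% ± 1.93 for H2B and 11.1% ± 0.275 for H4. With each family once H3 had 0.796% ± 0.205, H2A 36.2% ± 2.32, H2B 43.4% ± 1.84 and H4 11.4% ± 0.492, so the order of H2A and H2B rests on how copies are counted. By count, cluster genes took 0.234%, 0.317% and 0.285% of replicates 1, 2 and 3. Replacement genes took 0.712%, 0.648% and 0.561%.

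**Figure D3:**
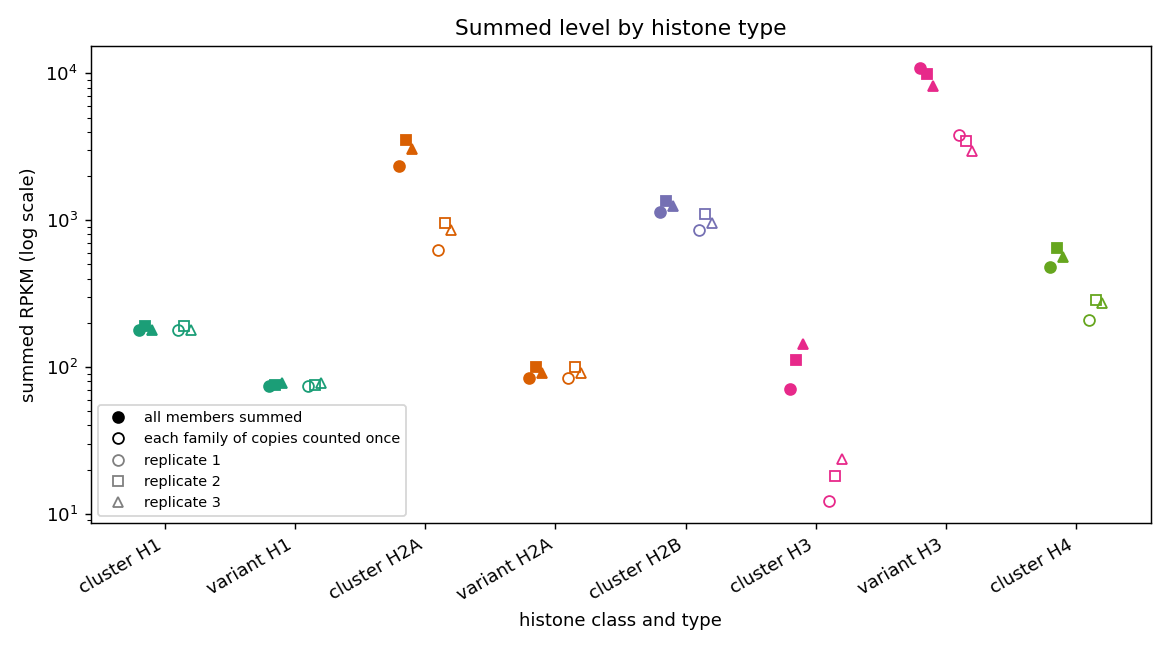
Summed RPKM of each histone class and type on a log axis, with 1 symbol shape per replicate library, filled for the full sum and open for each family of copies counted once. Variant H3 lies near 9660 RPKM in full and 3401 with H3f3a and H3f3c counted once, above cluster H3 at 108 and 17.9 either way.

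Replicate 1 held the lowest level of most cluster genes. Of the 59 cluster genes with a mean of 1 RPKM or more, 48 (81.4%) were lowest there, against 2967 of 9890 symbols (30.0%). This held for 12 of 12 H3, 15 of 16 H2A and 11 of 12 H4 genes, for 7 of 14 H2B and 3 of 5 H1 genes, and for 5 of 10 replacement genes. Copies share sequence, so these genes are not separate observations. The libraries differ by culture, and no test across libraries is possible with 1 of each.

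The types did not follow the same profile. The cluster H3 sum with each family once was 1.46 times replicate 1 in replicate 2 (95% exact binomial interval 1.25 to 1.70) and 1.87 times in replicate 3 (1.62 to 2.15). Cluster H2A was 1.47 times replicate 1 in replicate 2 (1.44 to 1.5) and 1.33 times in replicate 3 (1.30 to 1.36). Cluster H1 was 1.06 and 1.01 times replicate 1. The intervals cover counting error only. Full sums scaled by TMM gave 1.52 and 1.87 for H3 and 1.53 and 1.28 for H2A. The median over all symbols of 1 RPKM or more was 0.981 and 1.02.

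Genes outside the pattern were found in each type but H3. Within 1.2-fold of replicate 1 in both other libraries were 7 of the 59 cluster genes: Hist1h1c, Hist3h2a, Hist1h2bc, Hist1h2bk, Hist1h2bl, Hist1h2bh and Hist4h4. Over all symbols of that level the share was 46.2%. At least 1.2-fold above replicate 1 in both were 32 of the 59, against 7.87% of all symbols. That fold was chosen after the data were seen. The H3.3 genes ran otherwise, with H3f3a at 0.901 and 0.752 of replicate 1 and H3f3b at 0.924 and 1.000.

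H2afx had ratios to replicate 1 of 1.57 (1.45 to 1.70) and 1.45 (1.34 to 1.57). H2afj had 1.21 (1.13 to 1.31) and 1.01 (0.939 to 1.09). Markers of S phase and mitosis summed to 179, 191 and 188 RPKM, which is 1.07 and 1.05 times replicate 1. Single markers differed from that sum in both directions. Mki67 was 1.59 and 1.07 times replicate 1, Top2a 1.43 and 1.10 and Ccna2 1.08 and 1.51. Ccne1 was 0.896 and 0.438 times replicate 1 and E2f1 0.671 and 0.553. Slbp, which encodes the stem-loop binding protein, had 62.4, 52.6 and 68.4 RPKM. Their part in the spread of the cluster genes was not tested.

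**Figure D4:**
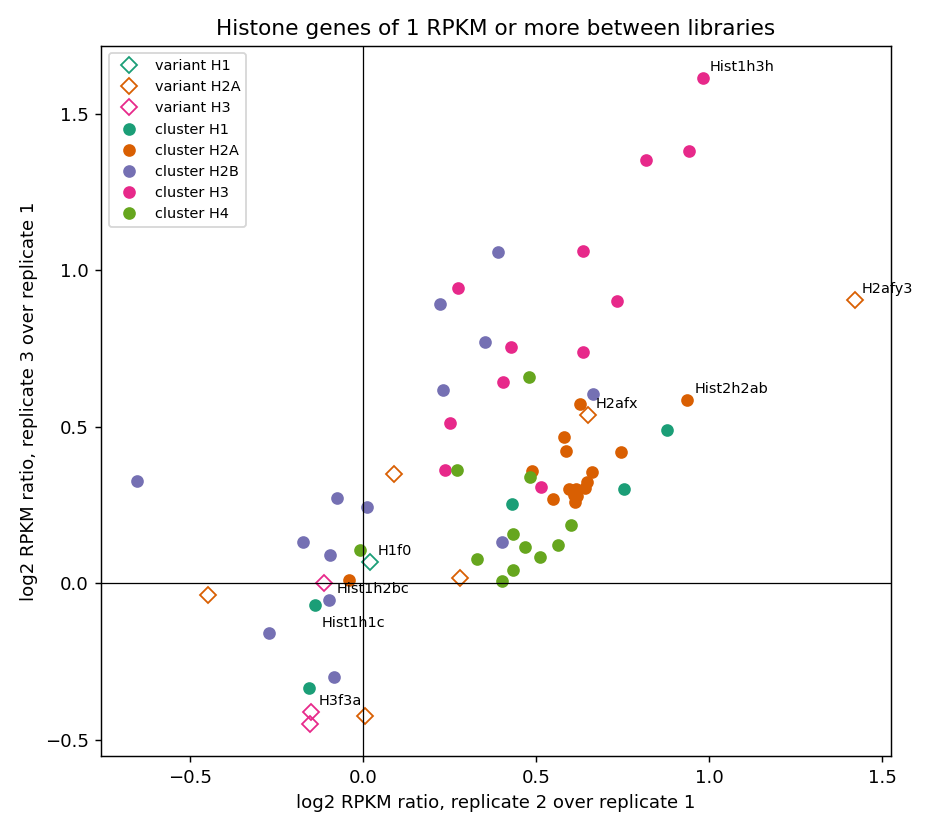
Log2 ratio of RPKM in replicate 2 (x axis) and in replicate 3 (y axis) to replicate 1 for the 69 histone genes with a mean of 1 RPKM or more, filled for cluster genes and open for variants. All cluster H3 genes and 15 of 16 cluster H2A genes lie to the upper right of the origin, Hist1h1c and Hist1h2bc lie near it, and H3f3a lies below it.

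The promoters of the clusters differed in motif content by type. RefSeq starts of build GRCm38.p6 were matched for 72 of the 82 genes, 58 cluster and 14 replacement, and the 250 bases before each start were searched on both strands. CCAAT was found in 48 of 58 cluster promoters (82.8%), against 34.5% of 27025 promoters of all genes. It was present in 6 of 6 H1, 17 of 17 H2A, 14 of 14 H2B, 8 of 10 H3 and 3 of 11 H4 promoters. ATTTGCAT, the octamer known from H2B promoters, was in 7 of 17 H2A and 6 of 14 H2B promoters and in 0 of the H1, H3 and H4 promoters, against 1.61% of all. TATAAA was in 28 of 58, against 13.0%. Of the 14 replacement promoters, 8 (57.1%) held CCAAT, 1 held TATAAA and 1 held ATTTGCAT. Mouse H2A and H2B genes often stand in divergent pairs, so a shared stretch can be searched for both genes. A match describes letters and is not evidence of binding.

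The promoters of Hist2h2bb, the cluster gene highest per kilobase, and of the steady Hist1h1c are shown. Matches are in capitals on either strand (ATTGG is CCAAT on the other strand). Hist2h2bb is at chr3:96269450-96269699 and Hist1h1c at chr13:23738557-23738806 of GRCm38.p6, both on the plus strand, read 5′ to 3′ up to the start site.
Hist2h2bb: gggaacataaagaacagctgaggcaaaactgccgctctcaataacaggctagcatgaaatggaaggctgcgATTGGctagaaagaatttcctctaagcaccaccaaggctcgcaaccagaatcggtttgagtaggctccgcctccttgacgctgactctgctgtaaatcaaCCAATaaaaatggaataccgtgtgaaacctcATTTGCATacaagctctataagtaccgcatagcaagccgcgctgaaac
Hist1h1c: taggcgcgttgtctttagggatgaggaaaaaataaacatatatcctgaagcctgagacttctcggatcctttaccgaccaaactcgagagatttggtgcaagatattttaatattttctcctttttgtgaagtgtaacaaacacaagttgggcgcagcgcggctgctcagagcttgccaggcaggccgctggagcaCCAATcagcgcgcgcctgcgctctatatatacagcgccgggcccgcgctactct
Hist2h2bb held CCAAT on each strand and the octamer. Hist1h1c held CCAAT near the start.

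The genes that process and place histones were mostly measured above 1 RPKM, counted over lists chosen with earlier results of these data known. By edgeR, 43.2% of all symbols tested were above and 13.4% below. Of 17 genes of histone messenger RNA processing, 12 were above, 2 below, 2 on neither side and 1 listed at 0. Slbp had 61.2 ± 8.01 RPKM, Ncbp2, a subunit of the cap-binding complex, 44.5 ± 2.68, Zcchc6, a uridylating enzyme of histone mRNA decay, 29.5 ± 2.13, and the cleavage factor gene Cpsf2 24.6 ± 1.42. The 2 below were Zfp473 and Casp8ap2, at 0.239 ± 0.0909 and 0.289 ± 0.0634 RPKM. Casp8ap2 and the gene listed at 0 had several rows.

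Of the H3.3 chaperones 8 of 8 were above 1 RPKM, led by Atrx, a chromatin remodeller, at 72.1 ± 6.99. Dek had 31.7 ± 2.13, Asf1a 19.8 ± 3.21 and Ubn1, of the HIRA complex, 10.03 ± 0.233. Of the replication-coupled chaperones 6 of 7 were above, led by Rbbp4 at 25.8 ± 3.26 and Hat1, the acetyltransferase of new H4, at 19.4 ± 1.88. Nasp had 5.79 ± 0.114 and Ipo4 4.19 ± 0.963 RPKM. Median levels were 9.19 RPKM for the former list and 4.19 for the latter, against 0.497 over all symbols with a length.

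For H2A.Z exchange 4 of 6 were above, beside 43.2% of all symbols tested, led by Anp32e, which removes H2A.Z, at 85.5 ± 6.03 RPKM. Znhit1 had 26.8 ± 4.74, Vps72 15.1 ± 2.88 and Ino80 10.9 ± 1.81. Srcap was below and Ep400 listed at 0, each with several rows. Of the H2A-H2B chaperones 4 of 5 were above: Npm1 at 118 ± 13.0 RPKM, Nap1l1 at 55.5 ± 7.25, Nap1l4 at 25.9 ± 1.94 and Supt16h at 25.1 ± 2.74. Ssrp1, also with several rows, was below. Cenpa, the centromeric H3 variant, had 208, 54 and 275 counts, or 4.94 ± 2.90 RPKM, and its chaperone Hjurp 48.4 ± 1.32.

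Of 23 genes of S phase and mitosis, 19 were above 1 RPKM, 3 on neither side and 1 listed at 0, beside 43.2% above of all symbols tested. The gene listed at 0 had several rows. The highest were Rrm1, a ribonucleotide reductase subunit, at 51.0 ± 3.14, the replication clamp Pcna at 23.4 ± 1.11, and the helicase subunits Mcm7 at 22.3 ± 1.69 and Mcm4 at 15.6 ± 0.733. Their list median was 3.82 RPKM. These levels stand beside the cluster histone sums and their part in those sums was not tested.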

How the data were processed

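RNA-seq of 3 PTH-treated IDG-SW3 libraries was used. The authors' deposited values, whole numbers for each of 30795 transcript rows, were read as raw counts with no normalization, although the file names give RPKM; no source used here describes the counting. TopHat and build mm9 were used, per the submitters' processing notes. Versions, the annotation, the counting step and its handling of strand and of multiply matching reads were not given in the sources used here.

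Rows were summed per symbol, giving 25410 symbols. Median GENCODE transcript lengths matched 23070 of them, with 2230 through older names, and these held 96.4% to 96.5% of the counts. RPKM used the library totals. Each symbol's level was tested against 1 RPKM with edgeR 4.0.16 (quasi-likelihood, two-sided, Benjamini-Hochberg over 21032 symbols). Tested on simulated data of 20565 genes, 100% of genes at 4 RPKM, 50% at 0.25 RPKM and 2% at 1 RPKM were called. Alternatives used DESeq2 1.42.0, limma 3.58.1 on log2(RPKM + 0.1), TMM, other lengths, filters and totals, and 2 of 3 libraries. Ratios are means and SD of library log2 values. Shared sequence was counted in 50-base stretches.

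Members and lists were chosen with earlier results of these data known. Named were all replacement genes, all cluster genes above 1 RPKM or at 0 counts, the 3 most variable genes, up to 4 genes of highest level in each list, Cenpa and Slbp. Zfp473, Casp8ap2, Srcap, Ep400, Ssrp1, Sost, Gm42743 and Gm20628 were added after their values were seen. Also named outside this rule were Hist1h1t, Hist3h2ba and Hist3h2bb-ps. So were Mki67, Top2a, Ccna2, Ccne1 and E2f1, out of 23 genes of S phase and mitosis.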

Additional observations from a re-analysis of the deposited data

How the results depend on the processing

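Of 94 ratio values under other settings, 78 kept their sign and moved by less than 1 SD, and of 896 member calls 886 were kept. Members above 1 RPKM numbered 66 with DESeq2 and 68 with limma, and 68 to 69 with a library left out. Members below were 5 with limma (H1fnt, H1fx, Hist1h1t, Hist3h2ba and Hist3h2bb-ps) and 0 otherwise. All symbols below 1 RPKM numbered 2817 by edgeR, 268 by DESeq2, 9614 by limma, 918 with coding length and 916 to 2561 with a library left out. The cause was not tested.

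Coding length and counting each family once were added after the data were seen. With coding length the log2 ratio was 0.58 for cluster to variant H1, 3.87 for H2A, -1.57 for H3f3b to H3f3a, 0.037 for Hist1h1c to H1f0 and 3.54 for Hist1h2bc to Hist2h2be. The H2A ratio was 5.33 with the longest and 4.29 with the shortest transcript and 3.13 with each family once. The H3 ratio was -7.60 with each family once, and H3f3b to H3f3a was -1.39 with the longest transcript. H2afz to H2afv turned to 0.00303 without replicate 2 and ran from -0.41 to 0.00303 with a library left out.

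Ratios near 0 counts followed the pseudocount and are no folds. H1fx to H1f0 was -8.59, -9.88 with coding length and -6.09 with pseudocount 1. H2afy to H2afy2 was -6.16, -7.11 with coding length, -6.42 with totals that leave out 15 symbols and -3.01 with pseudocount 1.

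No paired analysis was possible because the libraries form a single group. At these depths a floor of 3 counts limits genes with few reads.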
